A study of Homo sapiens with 8 samples.

Results

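The subject is the part of each chromosome arm that lies 2 to 5 Mb inward from the chromosome end, called the belt below. It was taken on 20 autosomes of hg19, all but chromosomes 19 and 22, at both ends of 16 chromosomes and at the q end alone of the acrocentric chromosomes 13, 14, 15 and 21. This gave 36 belts of 3 Mb, 108 Mb in all, cut into 10800 tiles of 10 kb, of 288091 such tiles on all autosomes. Tiles were taken by position alone, at borders chosen with earlier results of these data known. The cells were PC9, a human lung adenocarcinoma cell line whose growth depends on mutant EGFR. DTP + TSA cells had survived 8 days in 1 μM erlotinib, an EGFR kinase inhibitor, and were then given 50 nM TSA, or trichostatin A, which blocks histone deacetylases, for 5 hours on day 8. DTP cells, the survivors of the drug (persisters), had the same 8 days of 1 μM erlotinib and no TSA. Parental cells were untreated. For each state the deposited data hold 1 H3K9me3 ChIP-seq library as a list of enriched intervals. No difference below can therefore be set against replicate error, and p-values are not given. The 2 H3K4me3 and 3 input libraries of the series were not analysed here.

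H3K9me3, trimethylation of lysine 9 on histone H3, marks heterochromatin. It is written by methyltransferases such as SUV39H1 and SETDB1, read by HP1 proteins, and kept together with deacetylated histones. It is known at telomeric, centromeric and transposon repeats and at clusters of zinc finger genes. The sequence inward of the telomeres of human chromosomes is on the whole rich in genes and in GC, and in most arms it belongs to lightly stained Giemsa bands.

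The lists held 53000 intervals over 179 Mb in DTP + TSA, 47866 over 165 Mb in DTP and 23842 over 125 Mb in parental cells. They give no read totals, so depth is unknown, and its part in the numbers and lengths of intervals was not tested. The scale of the signal between lists is not stated either, so signal was compared within a list only.

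H3K9me3 intervals covered much more of the belt in DTP + TSA than in either other state. Intervals covered 17.3 Mb of it in DTP + TSA, 8.03 Mb in DTP and 5.99 Mb in parental cells, which is 15.98%, 7.44% and 5.55% of its length. DTP + TSA thus had 2.15 times the covered length of DTP, where the whole lists differed by 1.09 times. DTP had 1.34 times the parental length, close to the 1.32 of the whole lists, and DTP + TSA had 2.88 times, against 1.43. The belt held 9.64% of all H3K9me3-covered length in DTP + TSA, 4.87% in DTP and 4.78% in parental cells. When each list was cut to the 23842 intervals of strongest mean signal, DTP + TSA still had 2.05 times the DTP length in the belt, although its whole list was then 0.96 times that of DTP. On the same lists of equal size DTP + TSA had 1.49 times the parental length in the belt, with the whole list at 0.68 times, and DTP 0.73 times, with the whole list at 0.71 times.

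The belt made up 3.75% of the autosomal tiles, and its net difference between DTP + TSA and DTP was 9.23 Mb. Over all autosomes the net difference was 15.9 Mb. The outer 2 Mb of the same arms added 7.50 Mb, the stretch from 5 to 10 Mb 3.08 Mb and that from 10 to 20 Mb 0.55 Mb, while the arms beyond 20 Mb were at -9.50 Mb. Chromosomes 19 and 22 and the acrocentric short arms, which have no belt here, added 5.03 Mb. The net is thus a sum of gains and of a loss beyond 20 Mb, so a share of it is no share of all gains.

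Coverage fell off inward across the belt, with little change at its outer border and a rise just beyond its inner border in every list. In the 0.5 Mb just outside its outer border, from 1.5 to 2 Mb, it was 22.2% in DTP + TSA, 10.4% in DTP and 6.86% in parental cells. Just inside, from 2 to 2.5 Mb, it was 22.1%, 9.58% and 6.37% in the same order. In the innermost step, from 4.5 to 5 Mb, it was 8.01%, 4.25% and 3.99%, and just beyond the border, from 5 to 5.5 Mb, 8.69%, 6.11% and 5.24%. The difference between DTP + TSA and DTP was 12.5 points at 2 to 2.5 Mb, 10.2 points at 3 to 3.5 Mb and 3.76 points at 4.5 to 5 Mb. It was larger from 2 to 3.5 Mb than from 3.5 to 5 Mb in 28 of the 36 arms, with means of 11.5 and 5.60 points.

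**Figure D1:**
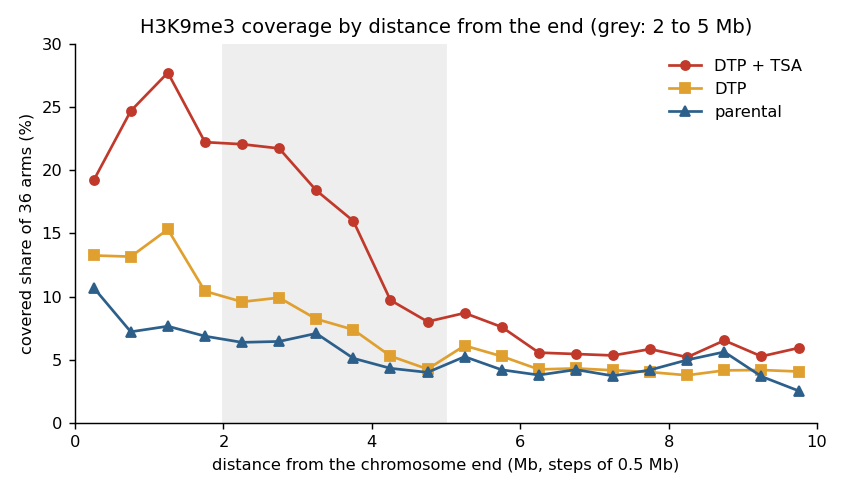
Share of sequence covered by H3K9me3 intervals (y axis, percent of the 36 arms together) against distance from the chromosome end (x axis, Mb, steps of 0.5 Mb), for DTP + TSA, DTP and parental cells, with 1 library each and the belt in grey. DTP + TSA lies above the other lists at every step, by most between 0.5 and 4 Mb; at 2 to 2.5 Mb it stood at 22.1%, DTP at 9.58% and parental cells at 6.37%.

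Of the 36 arms, 32 were covered more in DTP + TSA than in DTP. Among all 3-Mb windows of the autosomes, 37.7% were. The difference ran from -1.11 to 28.4 points with a median of 8.11, so the arms were far from alike. It was over 10 points in 12 arms (9q, 8q, 1p, 20q, 2q, 14q, 16q, 5q, 13q, 7q, 6q and 7p), which averaged 29.8% in DTP + TSA, 12.5% in DTP and 9.45% in parental cells. It was 5 to 10 points in 10 arms (21q, 4p, 17q, 5p, 16p, 10q, 11p, 12q, 17p and 12p), with averages of 14.2%, 6.04% and 3.89%. It was 0 to 5 points in 10 more (2p, 3q, 18q, 1q, 20p, 15q, 10p, 8p, 11q and 4q), with averages of 6.18%, 4.10% and 3.77%. In 6p, 3p, 18p and 9p it was below 0. DTP + TSA had at least 2 times the DTP coverage in 18 arms, a count with no share of all 3-Mb windows beside it.

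The 3 arms of largest difference stood apart from the rest. The belt of 9q was covered to 40.8% in DTP + TSA, 12.4% in DTP and 8.08% in parental cells, a difference of 28.4 points between DTP + TSA and DTP. That of 8q was covered to 46.3%, 17.9% and 10.1% in the same order, also a difference of 28.4 points. That of 1p was covered to 41.8%, 16.02% and 7.24%, a difference of 25.8 points. Next came 20q with 25.9%, 8.31% and 7.79%, and 2q with 27.8%, 11.4% and 11.3%. These 5 arms together made up 37.9% of the net difference in the belt. Without them DTP + TSA still had 1.95 times the DTP coverage.

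The next arms were high in every list. The 14q belt was covered to 29.9% in DTP + TSA, 13.9% in DTP and 9.10% in parental cells, that of 16q to 25.5%, 9.63% and 8.23%, and that of 5q to 28.1%, 14.8% and 11.98%. The belt of 7q had the highest parental coverage of all, with 25.7% in DTP + TSA, 14.2% in DTP and 14.03% in parental cells. The largest ratio of DTP + TSA to DTP, 5.08, belonged to 17q, where coverage was low without TSA, at 11.9% in DTP + TSA, 2.34% in DTP and 1.93% in parental cells. In 27 arms coverage was higher in DTP than in parental cells and higher again in DTP + TSA than in DTP, and in 5 arms it was lower in DTP than in parental cells and higher in DTP + TSA than in DTP.

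At the other end, the belt of 4q was covered to 4.14% in DTP + TSA, 3.99% in DTP and 2.85% in parental cells, and that of 6p to 5.49%, 5.57% and 3.61%. The belt of 3p was almost free of the mark in every list, at 0.59% in DTP + TSA, 0.81% in DTP and 0.073% in parental cells. That of 18p was covered to 4.21%, 4.93% and 4.39%, and that of 9p to 3.98%, 5.09% and 1.71%. None of these 5 arms exceeded 6% in any list.

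The ends of 1 chromosome often differed. On 13 of the 16 chromosomes with a belt at either end, the q belt had the larger difference. The widest gaps were on chromosome 9, with 28.4 points at the q end and -1.11 at the p end, and on chromosome 8, with 28.4 points at the q end and 1.24 at the p end. Chromosome 1 went the other way, with 2.67 points at the q end and 25.8 at the p end, as did chromosomes 4 and 11.

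**Figure D2:**
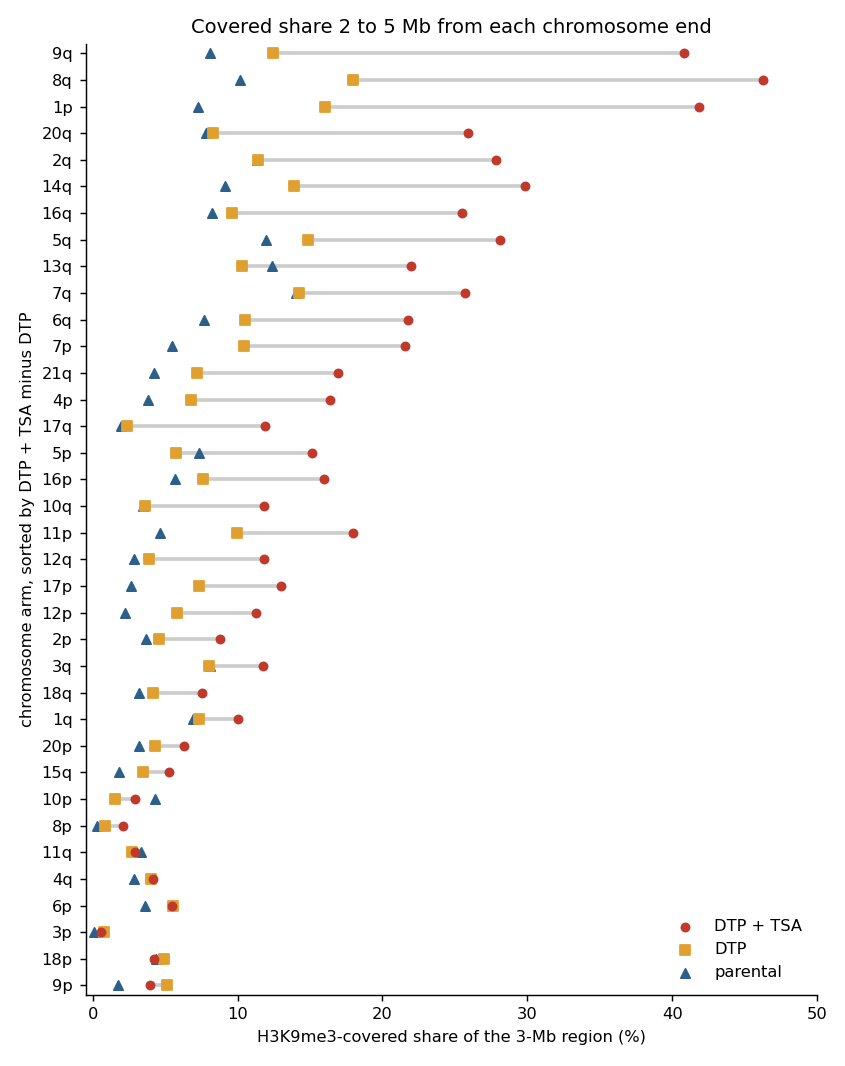
H3K9me3-covered share (x axis, percent of the 3-Mb belt) in each of the 36 arms (y axis, sorted by DTP + TSA minus DTP) in DTP + TSA (circles), DTP (squares) and parental cells (triangles), 1 library each, with a grey line joining DTP + TSA and DTP. DTP + TSA exceeds DTP in 32 arms, and the belts of 9q, 8q and 1p lie above 40% in DTP + TSA.

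Tiles show how local the difference was. A tile was called gained when its covered share was at least 20 percentage points higher, and lost when at least 20 points lower. In DTP + TSA against DTP, 1905 of the 10800 tiles were gained, or 17.6%, against 3.65% of all autosomal tiles, and 177 were lost, or 1.64%, against 2.72% of all. With lists of equal size, strongest mean signal first, 925 tiles were gained and 157 lost. Of the 1905 gained tiles, 1271 had no covered base in DTP. With a call at 50 points, 703 tiles were gained and 7 lost. Tiles covered over at least 50% of their length numbered 1431 in DTP + TSA, 533 in DTP and 449 in parental cells, and tiles without a covered base numbered 6657, 8383 and 9229. The share over all autosomes was taken only for the call at 20 points on the full lists. The other tile counts of this paragraph have no such share beside them.

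The overlap of the lists across tiles followed the same pattern. DTP + TSA alone touched 1720 tiles, DTP alone 230 and parental cells alone 252. All 3 lists touched 979 tiles, and 6123 tiles, 56.7% of the belt, were touched by none. Tiles touched in DTP + TSA and DTP and not in parental cells numbered 1156, and 288 were touched in DTP + TSA and parental cells and not in DTP. These patterns were counted in the belt only, and the lists differ in their number of intervals. The counts therefore cannot tell a trait of the belt from the size of the lists.

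Within the leading arms the mark was not spread evenly. In 8q the 4 steps of 0.5 Mb from 2 to 4 Mb were covered to 59.9% to 67.3% in DTP + TSA and to 12.6% to 34.7% in DTP, while the step from 4 to 4.5 Mb was covered to 11.2% in DTP + TSA and 7.52% in DTP. In 9q the outermost step was low, at 10.8% in DTP + TSA, 4.44% in DTP and 3.44% in parental cells, and the step from 3 to 3.5 Mb high, at 64.6%, 17.6% and 14.7%. In 1p the step from 3 to 3.5 Mb reached 77.4% in DTP + TSA, 34.1% in DTP and 15.6% in parental cells, and the next one inward 18.9%, 5.28% and 3.76%. In 14q the step from 3 to 3.5 Mb was at 4.96% in DTP + TSA, 3.20% in DTP and 3.24% in parental cells, between steps of 54.8% and 36.1% in DTP + TSA. In 16q, by contrast, each of the 5 outer steps lay between 25.03% and 33.5% in DTP + TSA and between 9.72% and 12.8% in DTP.

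Long unbroken runs of gained tiles were found in some arms only. In 1p 147 of 300 tiles were gained and none was lost, in 9q 146 were gained and 2 lost, and in 8q 134 were gained and 4 lost. The longest run was in 9q, at chr9:137483432-137743431, 260 kb long, covered to 80.1% in DTP + TSA, 20.1% in DTP and 16.9% in parental cells. The next was in 4p, at chr4:3660001-3890000, 230 kb long, with 71.3% in DTP + TSA, 17.9% in DTP and 2.00% in parental cells. In 1p the longest, chr1:2790001-2960000, was covered to 90.7% in DTP + TSA, 40.1% in DTP and 20.9% in parental cells. In 8q, with almost as many gained tiles, the longest run was 80 kb, in 2q, with 96 gained, also 80 kb, and in 16q, with 106 gained, 60 kb. In 3p and 9p only 1 and 2 tiles were gained, and in 9p 11 were lost.

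**Figure D3:**
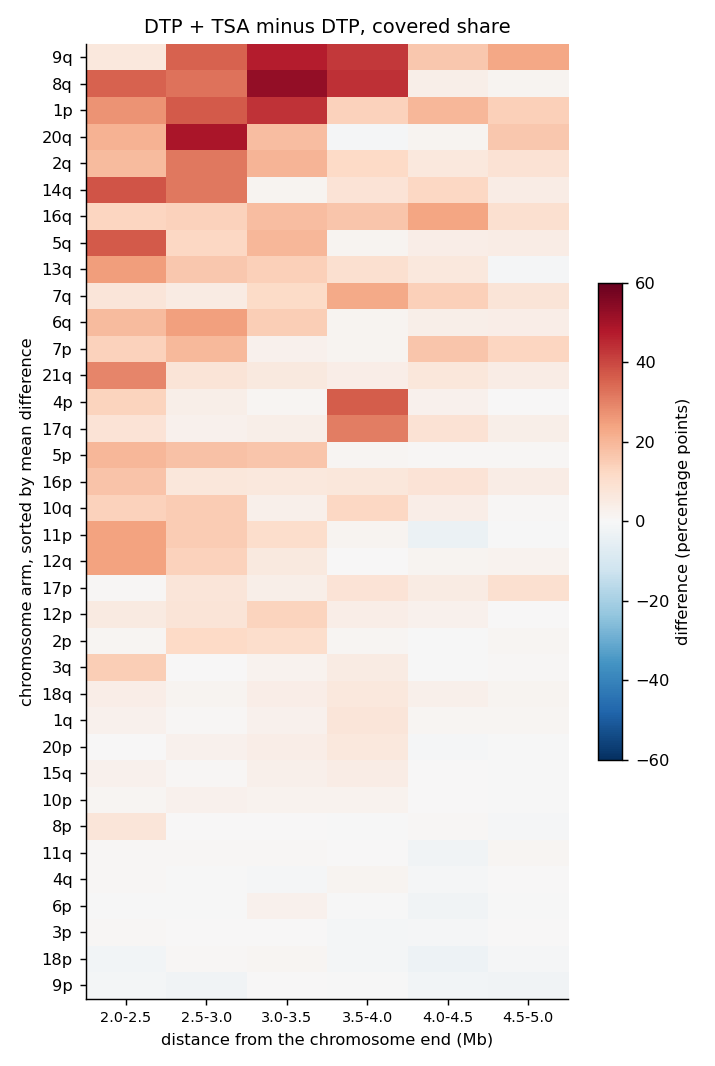
Difference in covered share between DTP + TSA and DTP (colour, percentage points, red where DTP + TSA is higher) in steps of 0.5 Mb (x axis, distance from the chromosome end) for each arm (y axis, sorted by the mean difference). The largest single step is 53.0 points, in 8q at 3 to 3.5 Mb, and the lowest rows from 11q to 9p are close to 0 throughout.

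New intervals, rather than longer ones, held most of the bases that DTP + TSA covered and DTP did not. An interval was counted in the belt by its midpoint and called new when it shared no base with any DTP interval. The belt held 3456 intervals in DTP + TSA, 1974 in DTP and 1115 in parental cells, which is 32, 18.3 and 10.3 per Mb. Of the 3456, 1834 or 53.1% were new (exact Clopper-Pearson 95% interval 51.4 to 54.7, counting error only), against 34.2% of DTP + TSA intervals on all autosomes. They held 7.15 Mb, which was 67.7% of the 10.6 Mb covered in DTP + TSA and not in DTP. A further 1508 intervals touched 1 DTP interval each and held 2.56 Mb of it, or 24.2%. The other 114 each bridged at least 2 DTP intervals and held 0.85 Mb, or 8.09%. The balance depended on the spacing allowed within an interval: with neighbours within 5 kb joined, new intervals held 38.8%. The split of added bases, here and by arm below, was taken in the belt only. It cannot tell a trait of the belt from one of the whole lists.

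Few DTP intervals of the belt went missing. Of its 1974 DTP intervals, 302 or 15.3% (13.7 to 16.96) shared no base with DTP + TSA, against 27.9% of DTP intervals on all autosomes, and they held 0.57 Mb. They were short, with a median of 1800 bp, and none exceeded 16 kb. Their median mean signal stood at percentile 28.0 of the DTP list.

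The intervals found in both persister lists were more often longer than shorter in DTP + TSA. Among 1364 pairs of a DTP + TSA and a DTP interval that touched only each other, the DTP + TSA member was longer in 818, shorter in 440 and equal in 106. The median was 3600 bp in DTP + TSA and 3200 bp in DTP. The median difference within pairs was 400 bp, with quartiles of -400 and 1600 bp. Pairs were counted in the belt only, so these values have none over all autosomes beside them.

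New intervals outweighed bases added to shared ones in 34 of the 36 arms, with 8q and 9p as the exceptions. The share of added length that lay in new intervals was 49.1% in 8q, 55.9% in 1p and 56.6% in 14q. It was 86.0% in 17q, 86.9% in 16p and 89.5% in 8p, the highest. In 9p, where only 5 intervals were new, it was 30.9%.

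**Figure D4:**
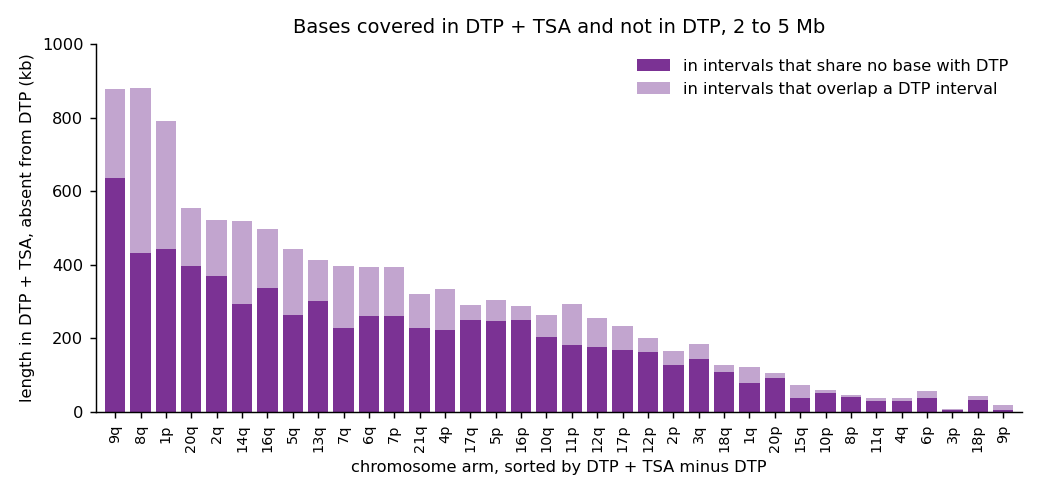
Length covered in DTP + TSA and not in DTP (y axis, kb) in each arm's belt (x axis, sorted by DTP + TSA minus DTP), split into intervals that share no base with DTP (dark) and intervals that overlap a DTP interval (light). New intervals make up most of the bar in 34 of 36 arms, and in 8q the parts are 432 and 448 kb.

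Intervals of the belt had a higher median length than those elsewhere in the same list. Domains over 16 kb made up 3.59% of belt intervals in DTP + TSA, against 0.99% of those elsewhere. In DTP they made up 1.22% against 0.81%, and in parental cells 2.33% against 2.84%. The median length in the belt was 3400 bp in DTP + TSA, 3000 bp in DTP and 4200 bp in parental cells, against 2400, 2400 and 3800 bp outside it. Domains over 16 kb numbered 124 in 20 arms in DTP + TSA, 24 in 13 arms in DTP and 26 in 12 arms in parental cells. The belt so held 20.2% (17.1 to 23.6) of the 613 such domains of the DTP + TSA list, 6.08% (3.93 to 8.91) of the 395 in DTP and 3.87% (2.55 to 5.63) of the 671 in parental cells. Of all intervals it held 6.52%, 4.12% and 4.68% in the same order. The bounds give counting error only, treat domains as independent and test no difference between lists. The most domains over 16 kb were in 8q, with 23 in DTP + TSA and 2 in DTP, and in 1p, with 18 in DTP + TSA and 1 in DTP. New intervals were the shorter class, with a median of 3000 bp, while those that bridged DTP intervals had a median of 15.3 kb.

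**Figure D5:**
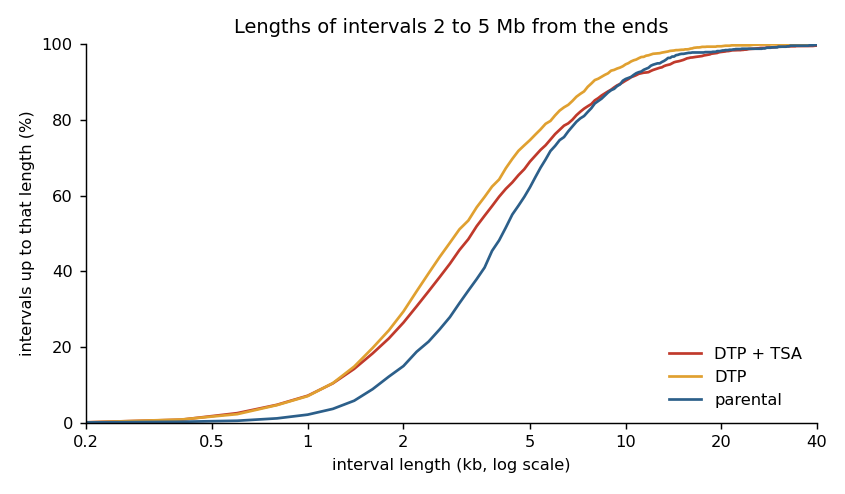
Cumulative share of belt intervals (y axis, percent) up to a given length (x axis, kb, log scale) in DTP + TSA (3456 intervals), DTP (1974) and parental cells (1115). The parental curve lies to the right up to 8 kb and crosses that of DTP + TSA between 9 and 10 kb; at 16 kb 96.4% of DTP + TSA, 98.8% of DTP and 97.7% of parental intervals are included.

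Signal in the belt was ordinary for each persister list and high for the parental one. The Avg Val column, the authors' mean signal per interval, had a belt median of 10.96 in DTP + TSA against 11.1 for that whole list, at percentile 48.6. It was 10.4 in DTP against 10.3, at percentile 50.9, and 9.78 in parental cells against 8.22, at percentile 67.9. Of the belt intervals, 48.7% (47.0 to 50.4) exceeded their list's median in DTP + TSA, 50.9% (48.7 to 53.1) in DTP and 66.6% (63.8 to 69.4) in parental cells. Within DTP + TSA, new intervals were the weaker ones. Their median Avg Val of 9.67 stood at percentile 36.9 of the list. That of intervals touching 1 DTP interval, 13.4, stood at percentile 65.0, and that of bridging intervals, 15.998, at percentile 75.7. The classes were set by overlap with the DTP list, so their order cannot be read as a separate trait of new intervals.

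The medians of single arms in DTP + TSA ran from percentile 17.3 of the list in 3p to 73.9 in 14q. Among the most covered arms, 8q stood at percentile 64.5, 1p at 45.3 and 9q at 45.1.

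Most new intervals were not at the edge of a DTP interval. The median gap to the nearest DTP interval was 15.0 kb (quartiles 6 and 35.8 kb) for the 1834 new intervals of the belt, and 401 of them, 21.9%, lay within 5 kb. For the 9145 new intervals over 20 Mb from an end of the same arms, the median gap was 19.8 kb and 18.2% lay within 5 kb. Their median length was 1600 bp, against 3000 bp in the belt. Their median Avg Val stood at percentile 43.9 of the DTP + TSA list, against 36.9 for the new intervals of the belt.

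The longest new intervals were extremes of their class, in which only 16 of 1834 exceeded 16 kb. No sequence is printed for them, since no hg19 genome was used here. The longest was chr9:138130401-138160000 in 9q34.3, 29.6 kb with an Avg Val of 11.4, and it had no parental overlap. The next were chr2:240416601-240445800 in 2q37.3 with 29.2 kb, also absent from parental cells, and chr8:143348001-143376600 in 8q24.3 with 28.6 kb, of which 6.60 kb was covered in parental cells. The other two were chr20:60789201-60810600 in 20q13.33 with 21.4 kb and chr1:2612601-2633200 in 1p36.32 with 20.6 kb, neither with any parental base. The 1p36.32 interval had an Avg Val of 34.9, at percentile 94.95 of the list, whereas the other 4 stood between percentiles 37.3 and 59.1.

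Extension was largest in 8q24.3. The interval chr8:143197801-143253400 was 55.6 kb long in DTP + TSA, of which 8.60 kb was covered in DTP by 2 intervals and nothing in parental cells. Nearby, chr8:142553001-142626200, the longest interval of the belt at 73.2 kb, had 30.4 kb covered in DTP and 12.6 kb in parental cells, and chr8:143675801-143723400 with 47.6 kb had 13.8 kb in DTP and 1.40 kb in parental cells. Outside chromosome 8 the largest extensions were chr14:104617001-104665400 in 14q32.33, 48.4 kb with 16 kb in DTP and 2.20 kb in parental cells, and chr7:154660801-154711800 in 7q36.2, 51.0 kb with 24.8 kb in DTP and 21.2 kb in parental cells.

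Losses were smaller. The 3 longest DTP intervals absent from DTP + TSA were chr7:4606601-4614200 in 7p22.1 with 7.6 kb, chr14:103728201-103735000 in 14q32.32 with 6.80 kb, and chr4:187101801-187107600 in 4q35.2 with 5.80 kb. None of the 3 overlapped a parental interval. The longest parental intervals absent from both persister lists were chr20:58360601-58372800 in 20q13.32 with 12.2 kb, chr13:110277401-110288800 in 13q33.3 with 11.4 kb, and chr3:193571201-193582000 in 3q29 with 10.8 kb.

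The belts lay mostly in lightly stained bands and had more genes than the autosomes on average. Light bands (gneg) made up 69.3% of the belt and 40.1% of the same arms beyond 20 Mb, and the dark bands (gpos75 and gpos100) 2.71% and 34.7%. In the light bands of the belt coverage was 17.8% in DTP + TSA, 7.91% in DTP and 6.12% in parental cells, while in light bands beyond 20 Mb it was 5.75%, 5.77% and 4.57%. Lightly grey bands (gpos25) of the belt stood at 15.997%, 7.97% and 5.13%, and medium grey ones (gpos50) at 8.18%, 5.23% and 3.66%. The 2.93 Mb of dark bands were at 1.26%, 1.00% and 1.30%. Of these, 2.8 Mb lay in 8p23.2, at 1.2% in DTP + TSA, 0.89% in DTP and 0.32% in parental cells. The rest, 0.13 Mb of 13q33.3, stood at 2.61%, 3.23% and 22.3% in the same order.

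Gene density was read by band, since no hg19 annotation was used here. Genes of the GRCh38 RefSeq table were placed in GRCh38 bands and counted for the hg19 band of the same name, and all 69 bands touched by the belt had such a match. The belts averaged 9.77 protein-coding genes per Mb of band, against 6.59 over the autosomes. Coverage of bands with 20 and more genes per Mb was 22.8% in DTP + TSA, 9.40% in DTP and 5.68% in parental cells inside the belt, and 6.35%, 5.01% and 3.26% beyond 20 Mb. In bands with fewer than 5 it was 8.27%, 5.22% and 4.17% inside the belt and 3.70%, 4.66% and 3.18% beyond 20 Mb. At every density class DTP + TSA over DTP was higher in the belt, at 1.58 to 2.43 times, than beyond 20 Mb, at 0.79 to 1.27 times. Across the 36 arms the difference between DTP + TSA and DTP had a Spearman correlation of 0.57 and a Pearson correlation of 0.46 with gene density, as a description, since all arms come from the same libraries. The 4 arms with a difference below 0 had 2.12 to 6.75 genes per Mb, but 20p, with 16.1 genes per Mb, had a difference of 2 points only. The part of gene density or band stain in the difference was not tested.

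Genes can be named by band where a band lies mostly, at least 75%, inside a belt. In 1p36.32, whose belt part was covered to 42.2% in DTP + TSA, 16.4% in DTP and 6.82% in parental cells, the table places 26 protein-coding genes. Among them are PRDM16, a zinc finger factor of brown fat and haematopoietic stem cells, HES5, a Notch-induced repressor, and TNFRSF14, a receptor of T cell costimulation. In 9q34.2, with 30.5%, 10.3% and 7.03%, it places 24, among them BRD3, a BET bromodomain reader of acetylated histones, WDR5, a core subunit of H3K4 methyltransferase complexes, and RXRA, a retinoid X receptor. In 16q24.2, with 24.8%, 10.9% and 10.8%, it places 18, among them SLC7A5, an amino acid transporter. Of the bands wholly inside a belt, 3 had a difference below 1 point. The first was 6p25.2, with 17 protein-coding genes, at 4.86% in DTP + TSA, 4.48% in DTP and 2.20% in parental cells. The others were 3p26.2, which holds CRBN, a ubiquitin ligase subunit, at 0.45%, 0.93% and 0%, and 9p24.2, which holds VLDLR, a lipoprotein receptor, and RFX3, a factor of ciliated cells, at 4.44%, 5.42% and 2.02%. These genes were picked as familiar members after the values had been seen, and whether any of them lay under an interval was not examined. The bands 14q32.32, 7p22.2, 12p13.32 and 10p15.2 also lay at least 75% inside a belt. Their differences fell between those of the bands above, and their genes are not described. Of the 69 bands touched by the belt, 21 hold genes counted here as zinc finger genes, 71 in all, over whole bands. The count is incomplete, since it leaves out PRDM16 of 1p36.32.

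Persisters without TSA differed less from parental cells in the belt. Coverage was higher in DTP than in parental cells in 31 of 36 arms, where 78.4% of all autosomal 3-Mb windows were. The median difference was 1.15 points, the largest 8.78 in 1p and 7.81 in 8q. In 13q, 10p, 5p, 11q and 3q coverage was lower in DTP, by most in 10p, with 1.57% in DTP and 4.31% in parental cells. Of the tiles 958 were gained, 8.87% against 6.69% of all, and 515 lost, 4.77% against 3.90%. Of the DTP intervals 1220, 61.8% (59.6 to 63.95), shared no base with parental cells, against 65.1% on all autosomes, and of the 1115 parental intervals 418, 37.5% (34.6 to 40.4), shared none with DTP, against 36.1%. These shares are close to those of the autosomes. The difference depended on which intervals were kept. With 23842 intervals in each list DTP had 0.73 times the parental coverage by mean signal, with 5 arms higher. By summit it had 0.95 times, with 10 arms higher. In the part of each list above its median mean signal, with list sizes still unequal, it had 1.01 times, with 16 arms higher. The whole lists then stood at 1.24 times.

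Set directly against parental cells, DTP + TSA was higher in 33 of 36 arms, against 75.9% of all 3-Mb windows, with 10p, 11q and 18p lower. In this comparison 2349 tiles were gained, 21.8% against 7.45% of all, and 348 lost, 3.22% against 4.00%. Of the DTP + TSA intervals 2575, 74.5% (73.0 to 75.95), shared no base with parental cells, against 69.2%, and of the parental intervals 282, 25.3% (22.8 to 27.95), shared none with DTP + TSA, against 37.7%. With lists of equal size by mean signal, DTP + TSA was higher than parental cells in 22 arms, with 1018 tiles gained and 571 lost. Both comparisons with DTP + TSA use its single library. In covered length, 2.97 Mb of the belt was common to all lists, 9.58 Mb was covered in DTP + TSA alone, 1.05 Mb in DTP alone and 1.77 Mb in parental cells alone. Of the 10.6 Mb covered in DTP + TSA and not in DTP, 0.98 Mb was covered in parental cells.

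Arms with a larger difference in the belt tended to rank higher on either side of it too. From 5 to 10 Mb, though, the difference between DTP + TSA and DTP had a median of 0.91 points and a highest value of 8.40. Across the 36 arms, the difference between DTP + TSA and DTP in the belt had a Spearman correlation of 0.70 (Pearson 0.56) with that in the outer 2 Mb and of 0.72 (Pearson 0.57) with that from 5 to 10 Mb. It had one of 0.74 (Pearson 0.64) with the parental coverage of the same belt. In points the belt exceeded the outer 2 Mb in 14 arms and the 5 to 10 Mb stretch in 33. As a ratio it exceeded the outer 2 Mb in 24 arms, and over all arms DTP + TSA had 1.80 times the DTP coverage in the outer 2 Mb (23.5% in DTP + TSA and 13.04% in DTP) and 1.39 times from 5 to 10 Mb (6.14% and 4.42% in the same order). On 5p the outer 2 Mb was covered to 61.9% in DTP + TSA and 29.97% in DTP, but the belt to 15.1% in DTP + TSA and 5.78% in DTP. The long arm of chromosome 22, which the choice of autosomes left out, had 11.2% in DTP + TSA, 5.26% in DTP and 3.85% in parental cells over its whole length, and 30.9%, 9.45% and 7.29% from 2 to 5 Mb. With 1 library a state, none of these differences between regions was tested.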

How the data were processed

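H3K9me3 ChIP-seq of PC9 cells was analysed in 3 states of 1 library each. Fragments of 300 to 500 bp were sequenced as 150 bp paired-end reads, per the labels' protocols. The submitters' processing notes name BWA, SICER, hg19 and dm3, with no version and no role for any of them. The sources used here do not give the input, the threshold or the scaling behind a list. Each deposited list holds position, summit, number of bins and the authors' signal as Peak Val and Avg Val, per the file headers, and signal was used within a list only. Interval borders fell on 200-bp steps.

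Covered length was summed per 10-kb tile, counted inward from each end. An interval was shared at 1 bp of overlap or more. The 95% bounds are exact Clopper-Pearson limits, which give counting error only.

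The rule for naming took the 5 arms of largest and the 5 of smallest difference between DTP + TSA and DTP, and the 5 longest new intervals in DTP + TSA. It also took the 5 intervals overlapping DTP with the most added length and the 3 longest absent intervals of DTP and of parental cells. Other arms, runs of tiles and bands were named after their values were seen. Members and lists were chosen with earlier results of these data known.

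Alternatives were joined intervals, lists of equal size, stronger or longer intervals, other tiles, calls, overlaps and belt borders, and omission of the 5 leading arms. Genes of alternate loci were left out of the gene table, which kept 56080 of 56756 autosomal genes. hg19 chromosome lengths came from GenomeInfoDb 1.38.1 and stained bands from circlize 0.4.16 (R 4.3.3). The rest was computed in Python 3.11.15 (pandas 2.3.3, numpy 2.4.6, scipy 1.17.1), with plots by matplotlib 3.10.9, and was tested on simulated data, where 10 of 10 checks returned the known answer.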

Additional observations from a re-analysis of the deposited data

How the results depend on the processing

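With 1 library a state, replicate error is unknown, and without read totals the part of depth was not tested. The intervals mark presence of enrichment, not its amount. DTP + TSA stayed above DTP in the belt under all alternatives run, at 1.95 to 2.27 times, and in 31 to 33 of 36 arms under those that changed the intervals. Over all results and settings run, these included, 36 stayed close to the reported value, 45 moved and 2 changed direction. A change of direction was read for ratios of covered length only, not for counts. On lists of equal size by mean signal, DTP exceeded parental cells in 5 arms, with 400 tiles gained and 728 lost. By summit it did so in 10 arms, with 588 gained and 642 lost. None of these counts is among the 2.

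With neighbours within 5 kb joined, the ratios of covered length were 2.23 (DTP + TSA over DTP), 1.40 (DTP over parental) and 3.12 (DTP + TSA over parental), and 38.8% of added length lay in new intervals. When the lists were cut to the same number of intervals, strongest mean signal first, the ratios were 2.05, 0.73 and 1.49, the share 61.8%, and DTP exceeded parental cells in 5 arms. Gained tiles were then 925, 400 and 1018 in the 3 comparisons, and 571 tiles were lost in DTP + TSA against parental cells. With the summit in its place the ratios were 2.05, 0.95 and 1.96, the share 63.5%, the arms of DTP over parental 10, and the gained tiles 1218, 588 and 1427. In the upper part of each list above its median mean signal they were 2.26, 1.01 and 2.28, 65.6%, 16 arms, and 1057, 460 and 1220 tiles. After removal of intervals shorter than 2600 bp, the median of the pooled lists, the ratios were 2.27, 1.21 and 2.75 and the share 71.1%. DTP over parental was thus reversed by lists of equal size, where fewer DTP intervals are used by construction. It was also close to 1 in the upper part of each list, where DTP kept 23930 intervals and parental cells 11921.

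A belt from 1.5 to 4.5 Mb gave 2.17, 1.40 and 3.04, one from 2.5 to 5.5 Mb 2.01, 1.28 and 2.57, and omission of the 5 arms of largest difference 1.95, 1.30 and 2.53. At 50 points 703 tiles were gained and 7 lost with TSA, and with 50-kb tiles 360 of 2160 were gained and 2 lost. The tile counts of the alternatives were not set against all autosomes. When sharing needed 50% of an interval, this put 87.0% of added length in new intervals, and a reciprocal overlap of 50% put 90.9% there. No paired analysis was possible because each state has 1 library.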

Other observations

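Coverage in DTP + TSA changed sharply from one step to the next in some arms. In 4p the step from 3.5 to 4 Mb was covered to 55.2% in DTP + TSA, 18.8% in DTP and 7.20% in parental cells, while the steps on either side were covered to 5.2% and 5.92% in DTP + TSA and the outermost step, from 2 to 2.5 Mb, to 20.7%. In 17q the same step was covered to 37.3% in DTP + TSA, 6.4% in DTP and 3.16% in parental cells, and the belt as a whole had 5.08 times the DTP coverage, with 11.9% in DTP + TSA and 2.34% in DTP. In 20q the step from 2.5 to 3 Mb was covered to 68.8%, 19.8% and 9.20%, whereas that from 3.5 to 4 Mb was almost bare, at 0.68%, 1.28% and 0.28%. These steps were chosen after their values were seen. The 5q step from 2.5 to 3 Mb was high in every list, covered to 44.4% in DTP + TSA, 32.01% in DTP and 39.7% in parental cells.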
